A study of Mus musculus with 4 samples.

Results

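These data are the transcriptome of the mouse morula after control siRNA (siControl), read from 2 of the 4 libraries of a series whose other libraries received siRNA against Pwp1. The 2 libraries were chosen by their titles and are described here on their own, across all 24411 genes listed in the files. The embryos were of the ICR strain, an outbred laboratory stock. They were made by in vitro fertilization, electroporated with siControl as 1-cell embryos at 3 hpi, and grown in KSOM, to which bovine serum albumin was added, until they were morulae at 72 hpi. Each library was made from the polyA RNA of 10 embryos with the SMART-Seq v4 PLUS Kit, which copies full-length cDNA from small inputs. Every embryo was thus in vitro produced and electroporated, and no untreated or in vivo embryo was analysed here. The labels do not say whether the replicates came from separate cultures, so the spread between them may be technical.

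The morula is the stage at which the blastomeres flatten against each other, an event called compaction. Its outer cells gain an apical surface and begin to become trophectoderm, the future placenta, while its inner cells keep pluripotency genes on and later give epiblast and primitive endoderm. By this stage the embryo's own genome has long been active, most RNA stored in the oocyte has been degraded, and the embryo is moving from pyruvate and lactate toward glucose as fuel.

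Levels are given as TPM, transcripts per 1000000 transcripts of the library, which are scaled by the length of each gene and so can be compared between genes. A pair of values is always replicate 1 and then replicate 2. The expected counts summed to 28981358 in replicate 1 and 44985949 in replicate 2. A count of 3 is then worth 0.104 and 0.0667 CPM (counts per 1000000 counts of the library), a floor that covers counting error only. A gene is called present when it had a TPM of 1 or more in both libraries, and silent when its expected count was under 3 in both. Silent therefore means not detectable at this depth, which for the median silent gene is a level under 0.0986 and 0.0696 TPM. By these rules 8871 genes (36.3%) were present, 8461 genes (34.7%) were silent and 7079 lay between. Of the silent genes, 7438 had a count of 0 in both libraries. As there is 1 library on each side, no difference between the replicates was tested.

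Markers of the labelled stage were present. The pluripotency factors Nanog at 229.8 and 165 TPM and Pou5f1 at 81.1 and 58.2 TPM, the early factors Klf5 at 93.6 and 120.0 TPM and Tfap2c at 31.95 and 34.01 TPM, and the adhesion gene Cdh1 at 34.3 and 18.3 TPM were under 2-fold apart between the libraries. Tead4, the factor that opens the trophectoderm programme, stood at 12.3 and 18.9 TPM, and Gata6, the first primitive endoderm factor, at 90.3 and 57.8 TPM. Of the 12 markers used for this check, 11 were present. The exception was Sox2, the inner cell factor, at 3.66 and 0.1 TPM with 235 and 9 counts.

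The libraries stood apart in some of these same markers, and values of both are given throughout. Krt8 was at 123 and 10.7 TPM and its keratin partner Krt18 at 182 and 14.4 TPM, Gata3 at 42.1 and 8.15 TPM and Cdx2 at 8.04 and 1.21 TPM. All 4, genes of the outer epithelium, were higher in replicate 1. Over the whole trophectoderm list, 26 of 35 genes were present, 0 had a count of 0 in both libraries, and the summed level was 1461 and 1272 TPM. Some genes of oocyte and early embryo families went the other way, with Trim43c at 22.02 and 461 TPM, Trim43b at 292 and 1303 TPM and Obox6 at 384 and 1201 TPM. Not all such genes did, as the Pramel and Pramef genes together held 0.159% and 0.134% of TPM. Among genes present in both libraries, 1268 of 8871 (14.3%) were over 2-fold apart, of which 445 were higher in replicate 1 and 823 in replicate 2, and 149 were over 4-fold apart. In pools of whole embryos, fewer cells of a type and less RNA per cell cannot be told apart. The cause of the split was not tested. Across the present genes, which are not independent replicates, the libraries correlated at a Spearman rho of 0.943, and at a Pearson r of 0.959 on log2 TPM.

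**Figure D1:**
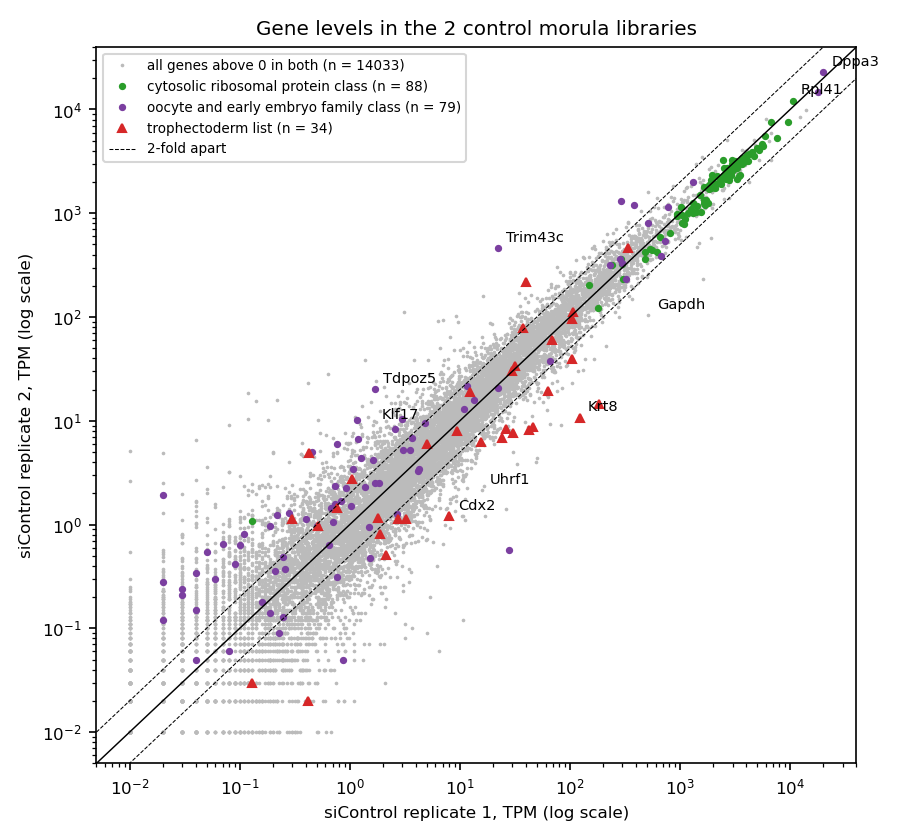
Each point is a gene, with its TPM in siControl replicate 1 on the x axis and in replicate 2 on the y axis, both on log scales, for genes above 0 in both. Solid and dashed lines mark equal levels and 2-fold differences; cytosolic ribosomal protein genes lie close to the line, 13 present trophectoderm genes lie over 2-fold toward replicate 1, and Trim43c lies toward replicate 2.

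The transcriptome was steep. A total of 178 genes made up 50% of the summed TPM and 1808 genes made up 90%. The 10 most abundant genes held 11.1% and 10.3% of TPM, the 100 most abundant 40.3% and 36.3%, and the 1000 most abundant 83.1% and 80.6%. By mean TPM, 5 genes stood at 10000 or more, 206 at 1000 or more, 1155 from 100 to under 1000, 3396 from 10 to under 100 and 4818 from 1 to under 10. The head of the distribution was shared between the replicates, since 87 genes were in the top 100 of both. Only 4 of the 100 most abundant genes were over 2-fold apart, the widest by 2.21-fold.

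The first and the second rank were held, in both libraries, by small genes of the pluripotent and germ cell programme. Dppa3, also called Stella, protects the maternal genome from loss of DNA methylation in the zygote and was at 19845 and 22948 TPM. It lies on chromosome 6 from 122626424 to 122630271 (RefSeq, GRCm38.p6) and alone made up 1.98% and 2.29% of the summed TPM. Dppa5a, an RNA-binding protein of pluripotent cells on chromosome 9 from 78367052 to 78368199, was at 17782 and 14745 TPM. Ppia, the cyclophilin A prolyl isomerase, followed at 13895 and 9809.6 TPM. Rpl41, the smallest protein of the large ribosomal subunit, was at 10511 and 12176 TPM, and Gabarapl2, an ATG8-type protein of autophagosome membranes, at 12187 and 8543 TPM. These are the 5 genes over 10000 TPM.

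Among the 30 most abundant genes, 13 encode cytosolic ribosomal proteins, among them Rpl41, Rpl38, Rps29, Rpl39, Rps27l, Rps14, Rpl35, Rps26, Rpl7 and Rpl32. Rpl38 at 9511 and 7624 TPM came next after Rpl41, and Rpl32 was at 4682 and 3544 TPM. Chaperones included Ppia, Hsp90aa1 at 6635 and 3255 TPM and Hspa8 at 3689 and 4045 TPM. Hsp90aa1 encodes the inducible form of HSP90, and it was the 1 gene of the 30 that was over 2-fold apart. The nucleolar chaperone Npm1 stood at 6362 and 4962 TPM, the histone variant H2afz at 3855 and 3981 TPM and the ubiquitin-like modifier Sumo2 at 3926 and 3749 TPM.

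Of the 100 most abundant genes, 47 were of the cytosolic ribosomal protein class, which was set by symbol and has 88 genes. In all, 87 of the 88 were present, and together they held 22.6% and 20.1% of TPM. The class had a median of 2136 TPM against 0.23 TPM over all listed genes. Nuclear genes of oxidative phosphorylation came next, with 91 of 96 present, 7 in the top 100 and 6.29% and 5.02% of TPM. Families of the oocyte and early embryo, such as Dppa, Trim43, Pramel and Obox, held 4.37% and 4.70% of TPM, of which Dppa3 and Dppa5a alone held 3.76% and 3.77%, and 38 of the 98 members were present. All 77 mitochondrial ribosomal protein genes were present. The glycolysis and lactate class placed 0 genes in the top 100.

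**Figure D2:**
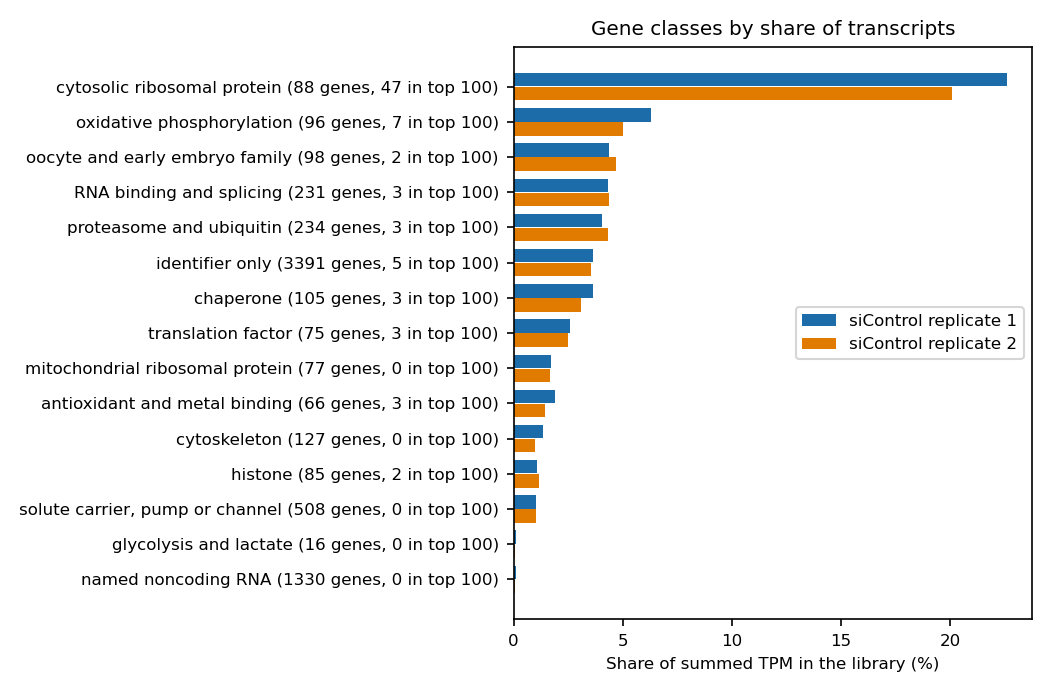
Bars give the share of summed TPM, in percent, held by each gene class in siControl replicate 1 and replicate 2, with the number of genes in the class and in the top 100 beside its name. Cytosolic ribosomal protein genes lead in both libraries, at 22.6% and 20.1%, and the glycolysis and lactate class is near the foot.

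Part of this order rests on how length enters TPM. The median effective length, the number of positions at which a fragment can start, was 423 bases in the 100 most abundant genes and 2165 bases in all present genes. For 15 of the 100 it was under 200 bases, and for Rpl38 it was 65.1 bases; a small error in fragment size moves the TPM of so short a gene strongly. Ranked by CPM instead, where length plays no part, 23 of the top 100 were cytosolic ribosomal protein genes. The first rank also changed: Dppa3 was at 11209 and 11731 CPM, and Hsp90aa1, a longer gene, at 17359 and 7758 CPM, above Dppa3 in replicate 1 and below it in replicate 2.

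The 10 most abundant genes outside every class and list were Gabarapl2, Hprt, Crxos, Cd63, Tceb1, Ptma, Map1lc3b, Sat1, Cks2 and Rps27rt. Hprt, the purine salvage enzyme on the X chromosome that is often used as a reference gene, was at 6093 and 8086 TPM. Crxos, a homeobox gene of the early embryo on chromosome 7, was at 6694 and 5998 TPM. Cd63, a tetraspanin of late endosomes and exosomes, was at 4679.7 and 5106 TPM, and Map1lc3b, a further ATG8-type protein and the LC3 used to mark autophagosomes, at 4048 and 4032 TPM. Sat1, which acetylates spermidine and spermine for their breakdown, was at 2689 and 5103 TPM, the widest gap between replicates among these 10. Ptma at 5166 and 3250.0 TPM, the elongin C gene Tceb1 at 4751 and 4499.7 TPM and the CDK-binding subunit Cks2 at 3855 and 3695 TPM complete the named set with Rps27rt, a retrotransposed copy of a ribosomal protein gene, at 3488 and 2853 TPM. Where reads fit both such a copy and its parent, their division between them is uncertain.

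Promoters of the present genes differed in composition from those of silent genes. The windows run from 250 bases before to 50 bases after the start of the gene (RefSeq, GRCm38.p6), and the 15381 genes with a single window were used. The 5 shown are those of the 3 most abundant genes with a window, the most abundant oocyte and early embryo family gene with one, and the silent mesoderm gene T (Brachyury), so that abundance, stage and silence can be seen side by side. Capitals mark every CG and every TATAAA on either strand.
Ppia (chr11:6415617-6415916, plus strand): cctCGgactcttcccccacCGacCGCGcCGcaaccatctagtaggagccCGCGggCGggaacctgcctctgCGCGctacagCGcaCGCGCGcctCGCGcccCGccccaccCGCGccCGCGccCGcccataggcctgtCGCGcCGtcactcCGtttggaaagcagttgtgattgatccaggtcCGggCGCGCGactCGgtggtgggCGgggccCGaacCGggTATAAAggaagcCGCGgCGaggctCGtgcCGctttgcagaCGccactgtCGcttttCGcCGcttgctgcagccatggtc
Rpl41 (chr10:128549119-128549418, minus strand): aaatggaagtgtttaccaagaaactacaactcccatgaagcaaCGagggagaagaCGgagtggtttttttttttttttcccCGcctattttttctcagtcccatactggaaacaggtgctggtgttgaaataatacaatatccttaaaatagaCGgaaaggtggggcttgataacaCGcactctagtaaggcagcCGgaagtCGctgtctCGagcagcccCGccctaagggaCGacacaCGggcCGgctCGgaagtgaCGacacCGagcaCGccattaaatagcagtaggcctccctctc
Gabarapl2 (chr8:111940453-111940752, plus strand): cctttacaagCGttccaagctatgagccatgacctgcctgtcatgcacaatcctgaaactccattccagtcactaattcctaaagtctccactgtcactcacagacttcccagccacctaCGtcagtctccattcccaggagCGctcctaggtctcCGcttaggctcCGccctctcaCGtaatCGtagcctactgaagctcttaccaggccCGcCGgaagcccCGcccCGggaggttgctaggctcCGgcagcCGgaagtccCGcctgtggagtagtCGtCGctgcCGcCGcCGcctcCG
Trim43a (chr9:88580641-88580940, plus strand): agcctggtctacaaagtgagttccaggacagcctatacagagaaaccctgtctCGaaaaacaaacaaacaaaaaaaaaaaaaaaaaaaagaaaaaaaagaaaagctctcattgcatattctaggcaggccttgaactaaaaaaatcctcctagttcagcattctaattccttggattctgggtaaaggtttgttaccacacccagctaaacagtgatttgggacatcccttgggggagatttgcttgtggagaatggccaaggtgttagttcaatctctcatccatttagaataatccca
T (chr17:8434173-8434472, plus strand): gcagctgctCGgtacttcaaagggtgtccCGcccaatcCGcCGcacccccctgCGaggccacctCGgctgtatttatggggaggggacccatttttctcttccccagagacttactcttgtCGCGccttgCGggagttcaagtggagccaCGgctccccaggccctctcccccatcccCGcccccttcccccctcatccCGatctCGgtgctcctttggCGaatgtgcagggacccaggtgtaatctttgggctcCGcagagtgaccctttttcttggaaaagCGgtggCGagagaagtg

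The Ppia window holds 43 CG pairs and a TATAAA that starts at base 222 of the window, just before the start of the gene. Rpl41 holds 16 CG pairs and Gabarapl2 holds 20, both without TATAAA. Trim43a, at 1324 and 1990.4 TPM, holds 1 CG pair. The window of T, a gene with a count of 0 in both libraries, holds 17, so a CG-rich window was not by itself a mark of a present gene.

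Over all protein-coding genes with a single window, the median was 22 CG pairs (quartiles 15 and 29) for 5700 present genes and 3 (quartiles 1 and 6) for 4075 silent genes. TATAAA, on either strand, was in 6.82% of the present, 26.9% of the silent and 13.9% of all windows. Here and below, all windows are those of all 15381 genes with a single one, noncoding genes included. GGGCGG, the core of the GC box, was in 67.5% of the present, 17.7% of the silent and 45.5% of all windows. CCAAT was in 40.9%, 39.5% and 39.7%, close to even. The 23 present genes of oocyte and early embryo families resembled the silent set in CG pairs, with a median of 2, while TATAAA was in 8.70% of their windows. These shares describe letters in a window and not binding of any factor.

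Several large gene families were mostly silent. Of 1125 olfactory receptor genes, 1026 were silent and 1 was present, and of 337 vomeronasal receptor genes 305 were silent and 0 present. Keratin-associated protein genes were silent in 51 of 53 cases, secretoglobins in 24 of 25, and the prolactin family of placenta and pituitary in 23 of 26. In the prolactin family 1 gene was present, and the highest mean was 46.8 TPM. Of the 39 Hox genes, which pattern the body axis later, 14 were silent, close to the share of all genes, 24 lay between and 1 was present, Hoxd8 at 2.55 and 1.98 TPM. All 1184 genes annotated as microRNA were silent; libraries of polyA RNA are not made to capture them. The families were chosen after their values were seen. By kind, 8622 of 20585 protein-coding genes and 188 of 2077 long noncoding RNA genes were present.

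The 29 gene lists below were read against the shares of all genes, 36.3% present and 34.7% silent. These include noncoding genes such as those for microRNA. Among protein-coding genes alone, 41.9% were present and 27.2% silent. Lists of respiration, stress defence and cell junctions lay far above the share present, and lists of other tissues far below it.

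**Figure D3:**
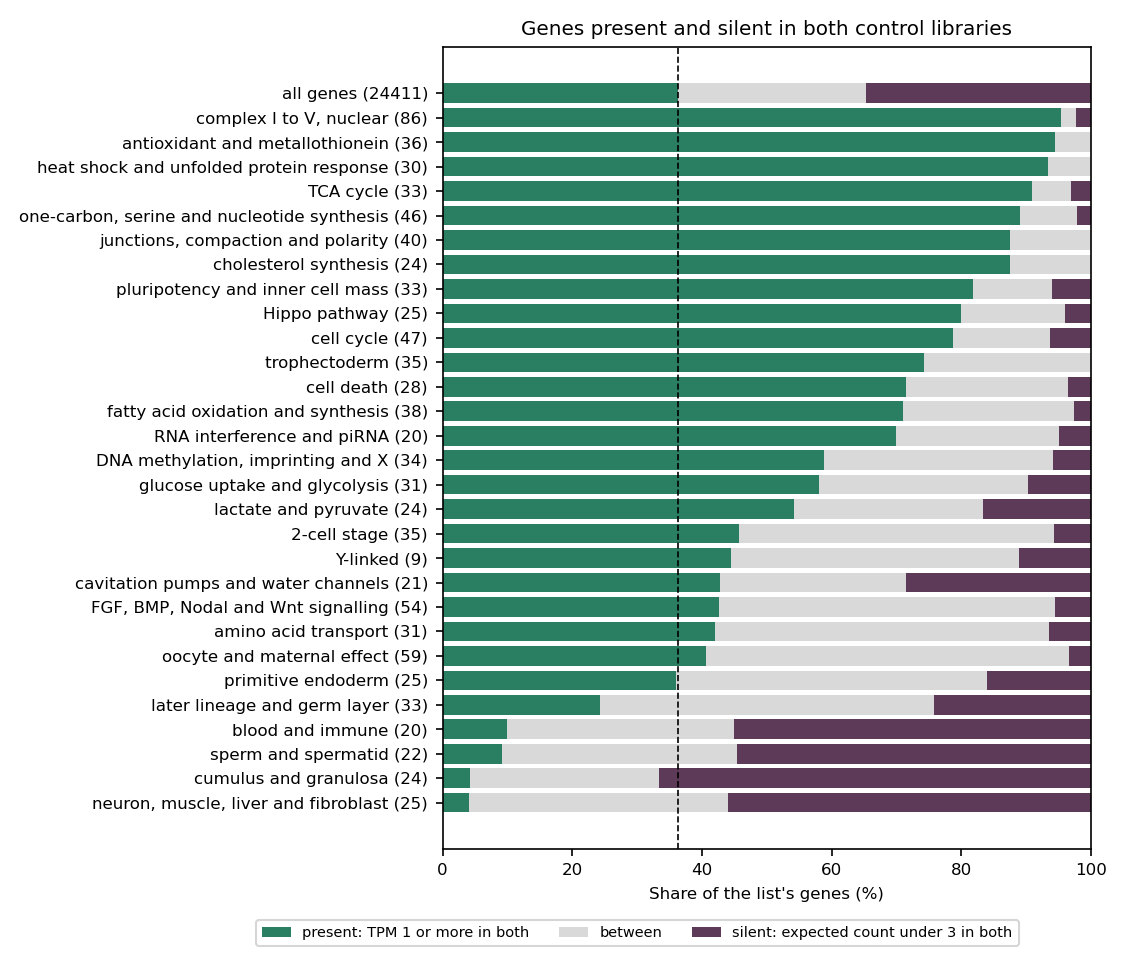
Each bar splits a gene list into the shares, in percent, that were present, between or silent in the siControl libraries, with the number of listed genes in parentheses and the dashed line at the share of all genes present (36.3%). Complexes I to V reach 95.3% present, and cumulus and granulosa genes reach 66.7% silent.

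Pluripotency genes were on almost throughout: 27 of 33 were present and 2 silent, with a list median of 21.3 TPM. After Dppa3 and Dppa5a the list was led by Dppa2 at 776 and 1158 TPM and Dppa4 at 512 and 806 TPM, DNA-binding partners of early embryo chromatin, and by the ETS factor Spic at 338 and 822 TPM. Nanog exceeded Pou5f1 in both libraries, and Sall4 at 119 and 141 TPM and Zfp42 at 99.7 and 100.1 TPM were close to even between them. The Kruppel-like factors ran from Klf5 down through Klf2 at 27.7 and 87.2 TPM and Klf4 at 16.4 and 13.5 TPM to Klf17 at 1.63 and 9.15 TPM. The 6 present members that were over 2-fold apart were all higher in replicate 2, and Klf17 was the widest of them by ratio. Over all present genes, 823 of the 1268 that far apart were higher in replicate 2.

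Sox2 was the member that the libraries did not share. Its 235 and 9 expected counts give 3.66 and 0.1 TPM, the first above the threshold and the second far under it. Nr0b1 had 0 and 32 counts and Prdm1 0 and 7. Bmp4, a signal of later stages, was silent with 0 and 2 counts.

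Trophectoderm genes were widely detected: 26 of 35 were present and 0 silent, with a list median of 15.4 TPM. The highest were Sfn, a 14-3-3 protein of epithelia, at 335 and 462 TPM, Bex1 at 39.5 and 218 TPM, the endocytic adaptor Dab2 at 107 and 113 TPM, the tight junction claudin Cldn4 at 104 and 96.5 TPM and Krt18. Of the 26 present members, 16 were over 2-fold apart, 13 of them higher in replicate 1, where the share over all present genes was 14.3%. The 13 included Id2 at 46.5 and 8.63 TPM, the prostaglandin synthase Ptges at 30.2 and 7.63 TPM and the sodium pump subunit Atp1b1 at 26.3 and 8.27 TPM. The spread was not shared by the whole list. Hand1, a factor of giant cells, was at 29.96 and 30.3 TPM, the water channel Aqp3 at 68 and 60.04 TPM and Tead4 at 12.3 and 18.9 TPM.

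Some genes of the list were low, among them genes of the later trophoblast, though Hand1 at 29.96 and 30.3 TPM was not. Eomes stood at 1.89 and 0.82 TPM, Ascl2 at 0.3 and 1.14 TPM, Plac1 at 2.15 and 0.51 TPM and Krt19 at 0.77 and 1.43 TPM, each past 1 TPM in a single library. The stem cell factor Elf5 had 7 and 0 counts, Gata2 11 and 4 and Tfap2a 37 and 3. Esx1, at 0.43 and 4.86 TPM, was higher in replicate 2, as were Ascl2, Krt19 and 3 of the 16 present members over 2-fold apart.

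The primitive endoderm list was near the background, with 9 of 25 present and 4 silent and a median of 0.96 TPM. The 9 were Lrpap1, Dab2, Gata6, Apoe, P4ha2 at 7.86 and 8.82 TPM, Lamb1, Apoa1 at 10.2 and 3.86 TPM, Lamc1 and Sparc at 3.17 and 1.01 TPM. Gata6 stood at 90.3 and 57.8 TPM, whereas Gata4, which follows it, was at 0.8 and 2 TPM and the receptor Pdgfra at 1 and 0.71 TPM. Sox17 with 2 and 0 counts and Foxa2 and Ttr with 0 in both were silent. Among basement membrane genes, Lamb1 at 9.9 and 4.29 TPM and Lamc1 at 3.73 and 2.9 TPM were present while Lama1 had 10 and 0 counts. By mean TPM, Lrpap1, a chaperone of lipoprotein receptors, led the list at 307 and 303 TPM. Dab2, Gata6 and then Apoe, at 39.1 and 99.3 TPM, followed. Lrpap1 and Apoe are not confined to this lineage.

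Of 33 genes of germ layers and later lineages, 8 were present, 8 were silent and 17 lay between, with a median of 0.21 TPM, next to 0.23 TPM over all genes. T, Cer1, Nodal, Foxa2, Kdr and the placental genes Prl3d1 and Tpbpa had a count of 0 in both libraries. The present ones included Gata1, the erythroid factor, at 11.4 and 22.5 TPM, the homeobox genes Hhex at 9.76 and 15.6 TPM and Gsc at 6.53 and 7.52 TPM, and the DNA methyltransferase Dnmt3b at 19.7 and 9.46 TPM. Otx2, a factor of primed pluripotency and of the head, was at 3.24 and 8.5 TPM, and Fgf5, the usual mark of the primed epiblast, at 0.43 and 0.82 TPM.

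**Figure D4:**
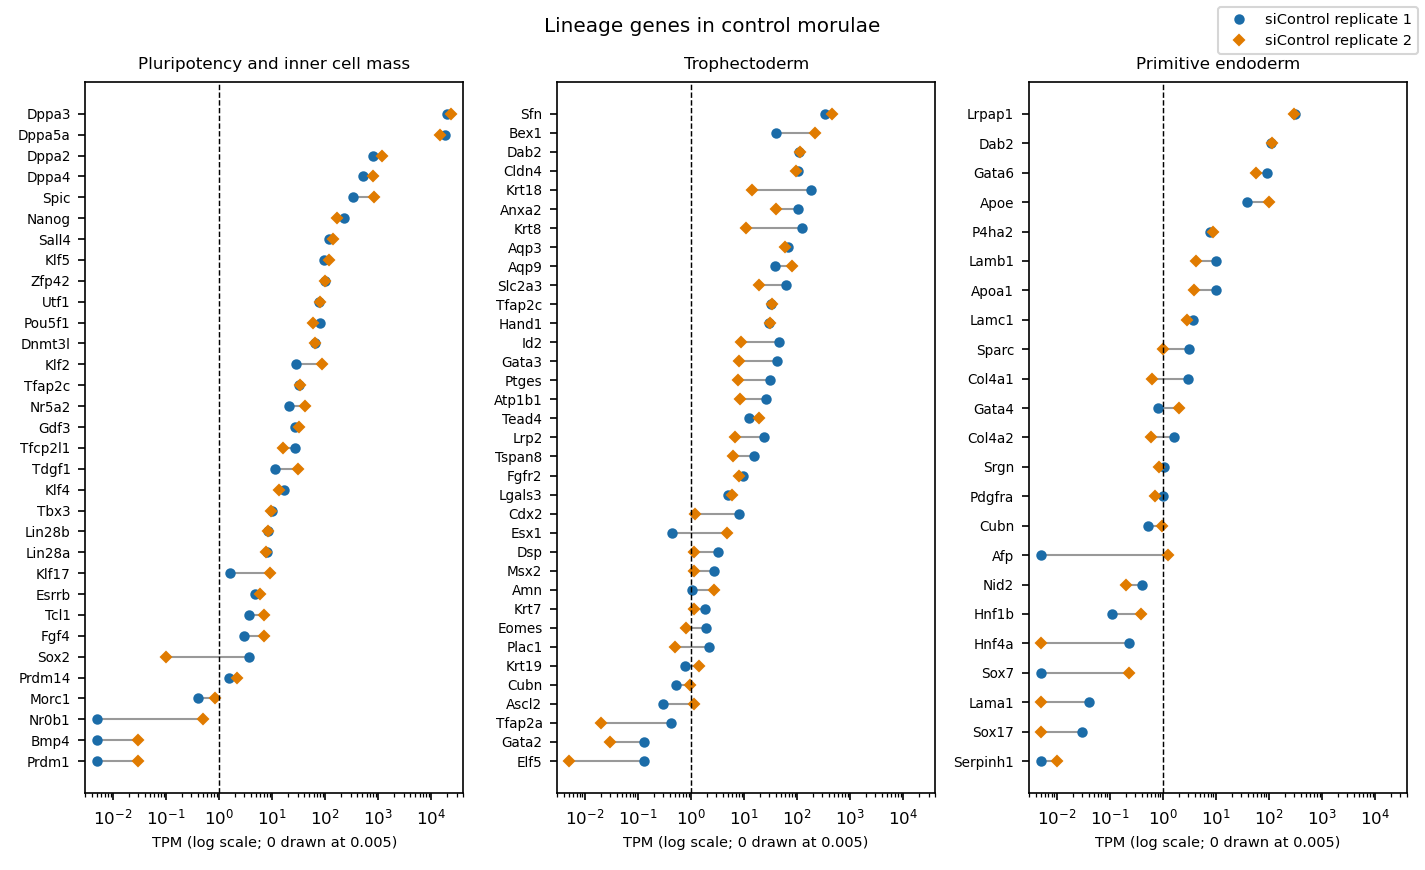
Each row is a gene, with circles for its TPM in siControl replicate 1 and diamonds for replicate 2 on a log axis (0 drawn at 0.005) and a dashed line at 1 TPM, in panels for pluripotency, trophectoderm and primitive endoderm genes with a count above 0 in at least 1 library. Krt8, Krt18, Gata3 and Cdx2 lie further right in replicate 1, while Zfp42, Hand1 and Dab2 nearly coincide.

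RNA of most genes listed for compaction was present. Of 40 genes for junctions, adhesion and polarity, 35 were present and 0 silent, with a median of 7.13 TPM. The small GTPases Cdc42 at 645 and 615 TPM and Rhoa at 315 and 406 TPM and the myosin light chain Myl12b at 454 and 244 TPM led the list. The gap junction gene Gja1 was at 295 and 214 TPM and the claudin Cldn7 at 182 and 175 TPM. The E-cadherin gene Cdh1 at 34.3 and 18.3 TPM stood beside its partners beta-catenin (Ctnnb1) at 58.8 and 40.5 TPM and alpha-catenin (Ctnna1) at 51.7 and 33.1 TPM. N-cadherin (Cdh2) had 6 and 22 counts and P-cadherin (Cdh3) 35 and 36. Epcam, an adhesion protein of epithelia, was at 213 and 52.9 TPM, one of the 6 members over 2-fold higher in replicate 1.

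The apical polarity genes were present at modest levels, with Prkci at 14.99 and 10.2 TPM, Pard6b at 11.9 and 6.7 TPM, Pard3 at 5.25 and 4.9 TPM and ezrin (Ezr) at 7.5 and 4.2 TPM. Of the desmosome genes in the list, Pkp2 was at 10.1 and 4.34 TPM, Jup at 2.94 and 2.44 TPM, Dsp at 3.22 and 1.13 TPM, Dsg2 at 3.89 and 0.68 TPM and Dsc2 at 0.5 and 0.03 TPM. All 5 were higher in replicate 1, and Dsg2 and Dsc2 were not called present.

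The Hippo pathway, which reads cell position and holds YAP out of the nucleus in inner cells, had 20 of 25 genes present and 1 silent, at a low median of 4.89 TPM. The coactivators were Wwtr1 (TAZ) at 17.6 and 21.7 TPM and Yap1 at 9.62 and 6.58 TPM. The kinases Lats1 at 2.54 and 3.82 TPM and Lats2 at 6.14 and 5.17 TPM, their activator Nf2 at 9.06 and 7.51 TPM and the junction scaffold Amot at 8.47 and 5.82 TPM were present. Among the DNA-binding partners, Tead4 was highest, Tead1 was at 4.43 and 3.28 TPM, Tead2 at 4.21 and 1.06 TPM and Tead3 at 0.03 and 0.13 TPM. Of the targets known from other cells, Ctgf was at 10.4 and 3.32 TPM and Cyr61 at 4.56 and 6.7 TPM, while Ankrd1 was silent with 0 and 2 counts.

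For the pumps and channels that later fill the blastocyst cavity, 9 of 21 were present and 6 silent. These shares, 42.9% and 28.6%, were near the 36.3% and 34.7% of all genes. The water channels Aqp3, at 68 and 60.04 TPM, and Aqp9, at 37.7 and 78.9 TPM, were the leading aquaporins, and Aqp11 was at 6.4 and 21.6 TPM. Aqp5 and Aqp8 had 0 counts in both libraries and Aqp1 had 1 and 0. The beta subunits of the sodium pump Atp1b3 and Atp1b1 were at 96.5 and 162 and 26.3 and 8.27 TPM. The epithelial sodium channel subunit Scnn1a and the exchanger Slc9a3 were silent.

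Signalling genes of the FGF, BMP, Nodal and Wnt pathways were present in 23 of 54 cases and silent in 3, with a median of 1.17 TPM. The share present, 42.6%, was near the 36.3% of all genes. The ligand Fgf4, sent by inner cells, stood at 3 and 7.13 TPM, and its receptors Fgfr1 and Fgfr2 at 4.07 and 2.39 and 9.47 and 8.05 TPM. The BMP target Id3 was at 36.6 and 102 TPM and the FGF antagonist Spry2 at 15.9 and 21.2 TPM. The Nodal pathway had its coreceptor Tdgf1 at 11.3 and 30.9 TPM and the relative Gdf3 at 27.2 and 32.5 TPM, while Nodal itself had 0 counts in both. The receptors for LIF, a cytokine used to keep stem cells naive in culture, were barely seen: Lifr had 0 and 39 counts and Il6st 12 and 10. Their downstream factor Stat3 was at 5.06 and 1.75 TPM.

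RNA of oocyte and maternal-effect genes was present in part. Of 59 genes, 24 were present and 2 silent, 13 reached 1 TPM in a single library, and the median was 1 TPM. The share present was near that of all genes, at 40.7% against 36.3%, while the share silent was far lower, at 3.39% against 34.7%. Apart from Dppa3, the list was led by Khdc3 at 729.9 and 541 TPM, the piRNA factor Gtsf1 at 107 and 256 TPM, Trim28, a corepressor that guards imprints, at 83.5 and 60.5 TPM, and Ooep at 65.6 and 37.7 TPM. Members of the subcortical maternal complex thus differed widely: Khdc3 and Ooep were present, Padi6 was at 2.6 and 8.36 TPM, Tle6 at 0.68 and 1.45 TPM and Nlrp5 (Mater) at 0.21 and 0.36 TPM. The genes of the egg coat, Zp3 at 3 and 10.4 TPM, Zp2 at 0.7 and 1.05 TPM and Zp1 with 5 and 0 counts, were low. Gdf9 and Bmp15, growth factors that the oocyte secretes, were at 0.38 and 1.1 and 0.23 and 0.43 TPM, the meiotic kinase Mos and the oocyte factor Nobox had 0 counts in both, and Zar1 had 0 and 4. Of the 24 present, 9 were over 2-fold apart and 8 of these were higher in replicate 2, such as Npm2, the oocyte nucleoplasmin, at 2.55 and 12.9 TPM. Among all 1268 present genes over 2-fold apart, 823 were higher in replicate 2.

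Genes listed for the burst of transcription at the 2-cell stage were present in 16 of 35 cases and silent in 2, with a median of 1.26 TPM. The share present, 45.7%, was not far above the 36.3% of all genes. The present ones were uneven. Pramel6 at 667 and 388 TPM, Pramel7 at 297 and 333 TPM, Eif1a at 229.8 and 317 TPM and Sp110 at 81.1 and 272 TPM were abundant, and the other members were far lower. Whether this RNA was left from the 2-cell stage or made later was not tested. Best-known marks of that stage were low: Dux had 10 and 0 counts, Zscan4c was at 0.19 and 0.96 TPM, Zscan4d at 0.76 and 0.31 TPM and Zscan4f at 0.11 and 0.81 TPM, all under 1 TPM in both libraries, while Zfp352 was present at 1.62 and 4.2 TPM. Of the 16 present, 8 were over 2-fold apart, and 7 of these were higher in replicate 2, beside 823 of 1268 over all present genes. Tdpoz5 at 1.7 and 20.3 TPM and Usp17lb at 1.16 and 10.2 TPM were among the 7. Many of these are multi-copy families in which reads are shared between copies, so the level of a single copy is uncertain.

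In the RNA interference and piRNA list, 14 of 20 were present. The slicer Ago2 was at 6.68 and 8.75 TPM, Dicer1 at 1.64 and 2.99 TPM and Drosha at 10.3 and 6.52 TPM. The germline factors Asz1 at 29.5 and 92.8 TPM, Mael at 18.8 and 87.2 TPM and Ddx4 (Vasa) at 5.15 and 38.5 TPM were all higher in replicate 2. Of the Piwi proteins, Piwil2 was at 11.8 and 12.02 TPM, Piwil1 had 1 and 10 counts and Piwil4 had 0 in both.

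RNA of genes for glucose use was uneven along the pathway. Of 31 genes of uptake and glycolysis, 18 were present and 3 silent, with a median of 4.04 TPM. Among glucose transporter genes, Slc2a3 was at 62.8 and 19.3 TPM, Slc2a8 at 18.8 and 13.6 TPM and Slc2a1 at 7.98 and 6.91 TPM, and Slc2a2 was silent. The hexokinases Hk1 and Hk2 were at 3.38 and 4.7 and 6.32 and 5.44 TPM. All 3 genes for phosphofructokinase, the committing step, were under 1 TPM in both libraries, with Pfkl at 0.61 and 0.08 TPM, Pfkm at 0.49 and 0.2 TPM and Pfkp at 0.36 and 0.43 TPM. The steps after it were well above that, with Aldoa at 273 and 258 TPM, Pgam1 at 218 and 193 TPM and Pkm at 20.2 and 7.73 TPM. Gapdh, often used as a reference gene, was at 516 and 105 TPM, or 4.92-fold apart between replicates.

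RNA of genes for pyruvate entry into mitochondria stood higher. Of 24 genes for lactate and pyruvate, 13 were present and 4 silent. The mitochondrial pyruvate carrier genes Mpc1 at 1221 and 1248 TPM and Mpc2 at 418 and 704 TPM led the list, and the pyruvate dehydrogenase subunits Pdhb at 399 and 537 TPM and Pdha1 at 144 and 227 TPM followed. Of the kinases that switch this enzyme off, Pdk3 was at 3.96 and 5.36 TPM and Pdk2 at 0.49 and 0.41 TPM, Pdk1 had 5 and 10 counts and Pdk4 2 and 0. Lactate dehydrogenase was low in both forms, with Ldha at 13.2 and 22.6 TPM and Ldhb at 1.41 and 5.65 TPM. At the cell surface Slc16a1, which carries both acids, was at 19.7 and 13.6 TPM with its chaperone Bsg at 456 and 457 TPM. Slc16a3, Slc16a7 and Slc16a8 had 0 counts in both. Pcx, which makes oxaloacetate from pyruvate, had 4 and 4 counts.

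Respiration genes were among the most completely present of the lists. In the TCA cycle 30 of 33 were present, with a median of 31.4 TPM, led by Mdh2 at 358 and 563 TPM and Idh3g at 278 and 413 TPM, while Ogdh, of the rate-controlling oxoglutarate step, was at 6.64 and 4.36 TPM. For complexes I to V, 82 of 86 nuclear genes were present, with a median of 330 TPM. Of these, 65 were among the 1000 most abundant genes, and 2 of the 82 were over 2-fold apart. The leading members were small subunits: Cox7c at 3543 and 2854 TPM, Atp5j at 3192 and 2554 TPM and Uqcrb at 3201 and 2489 TPM. Large core subunits were lower, with Ndufs1 at 44.9 and 34.6 TPM and Sdha at 13.7 and 14.4 TPM. The muscle and tissue forms Cox6a2 and Cox8b were silent. The testis cytochrome c gene Cyct was present at 105 and 23.2 TPM beside the somatic Cycs at 286 and 247 TPM. The files list 0 genes of the mitochondrial genome, so the mitochondrial subunits were not analysed here.

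Lipid genes were present in 27 of 38 cases for fatty acids and 21 of 24 for cholesterol synthesis. Fabp3, a fatty acid binding protein, was the highest at 1623 and 231 TPM, and it was 7.03-fold apart between replicates. Oxidation enzymes included Acadm at 209 and 345 TPM and Hadh at 109.5 and 87.1 TPM, with the carnitine gatekeeper Cpt1a at 6.47 and 3.65 TPM. The synthesis enzymes Fasn and Acaca were low, at 3.17 and 2.62 and 1.19 and 1.48 TPM. In cholesterol synthesis, where 0 members were silent, Fdps at 214 and 163 TPM and Msmo1 at 114 and 161 TPM led, and the regulator Srebf2 was at 1.49 and 0.07 TPM, over the threshold in replicate 1 alone.

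Amino acid transporters were near the background, with 13 of 31 present and a median of 0.59 TPM. They were led by the heavy chain Slc3a2 at 41.4 and 109 TPM and by Slc1a1, for glutamate and aspartate, at 62.4 and 80.9 TPM. Glycine transporter Slc6a9 was at 0.06 and 0.46 TPM and the cystine transporter Slc7a11 at 0.05 and 0.05 TPM. One-carbon, serine and nucleotide synthesis was denser, with 41 of 46 present and a median of 23.0 TPM. The glycine cleavage protein Gcsh stood at 1405 and 2953 TPM, Bhmt, which remakes methionine from betaine, at 1085 and 1646 TPM, and Prps1, which makes the ribose donor of nucleotides, at 517 and 1586 TPM. Impdh2 and Psat1 followed at 323 and 738 and 384 and 574 TPM. Of its 41 present members, 6 were over 2-fold apart, a share near the 14.3% of all present genes. All 6 were higher in replicate 2, as were 823 of the 1268 over all present genes. Folr1, the folate receptor, was at 349.7 and 472 TPM.

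Antioxidant genes were present in 34 of 36 cases with 0 silent and a median of 73.5 TPM. The iron stores Ftl1 at 3863 and 2917 TPM and Fth1 at 1973 and 1228 TPM, the metallothioneins Mt1 at 3427 and 2148 TPM and Mt2 at 1499 and 1538 TPM and the peroxiredoxin Prdx1 at 2401 and 1673 TPM led the list. Catalase (Cat) was at 11.4 and 5.82 TPM. The list for heat shock and the unfolded protein response was likewise near complete, with 28 of 30 present. Hsp90aa1 and Hspa8 led, while the stress-inducible Hspa1a and Hspa1b were at 0.53 and 0.73 and 2.84 and 2.22 TPM and the endoplasmic reticulum stress factor Ddit3 (CHOP) at 10.5 and 5.07 TPM.

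**Figure D5:**
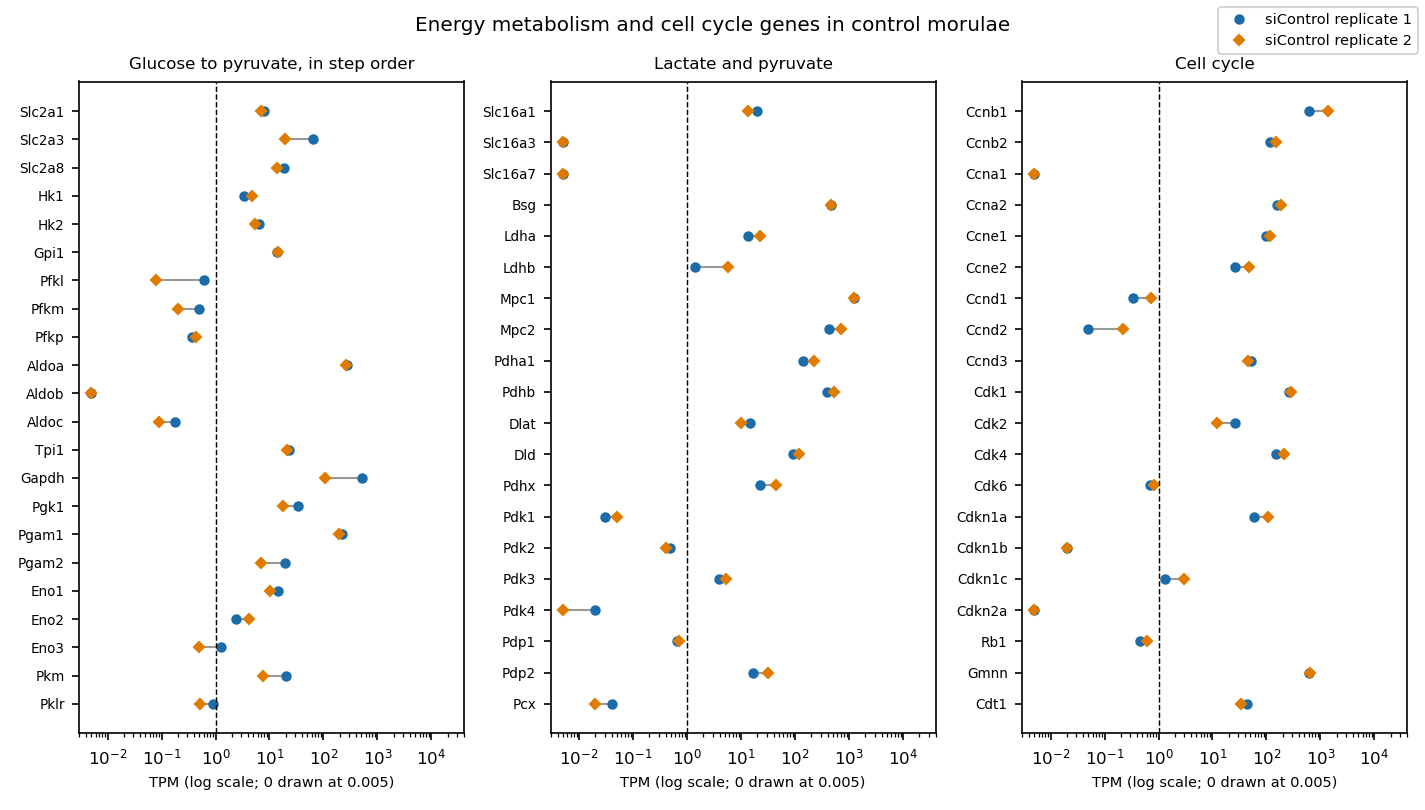
Each row is a gene, with circles for siControl replicate 1 and diamonds for replicate 2, as TPM on a log axis (0 drawn at 0.005) with a dashed line at 1 TPM, in panels for glycolysis in step order, for lactate and pyruvate, and for the cell cycle. All 3 phosphofructokinase genes sit left of the line in both libraries, Mpc1 sits at 1221 and 1248 TPM, and among the cyclin D genes Ccnd3 alone is right of the line.

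The cell cycle list, with 37 of 47 present and 3 silent, had a median of 28.7 TPM. Ccnb1, the mitotic cyclin, was at 619 and 1397 TPM, the licensing inhibitor Gmnn at 610.5 and 645 TPM, and the kinases Aurka and Cdk1 at 212 and 346 and 266 and 284 TPM. Of the G1 cyclins of the D type, Ccnd3 was at 50.96 and 46.1 TPM while Ccnd1 was at 0.34 and 0.74 TPM and Ccnd2 at 0.05 and 0.22 TPM, and the retinoblastoma gene Rb1 was at 0.45 and 0.6 TPM. The cyclin E genes Ccne1 and Ccne2 were at 97.9 and 118 and 26.3 and 46.97 TPM. Among inhibitors, Cdkn1a (p21) was at 59.4 and 104 TPM, whereas Cdkn1b (p27) had 1 and 2 counts and Cdkn2a had 0 in both. Ccna1, a germline cyclin, also had 0 in both, and Ccnb3 was at 0.04 and 1.03 TPM.

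Of 28 cell death genes, 20 were present and 1 silent. Birc5 (survivin), which also serves chromosome segregation, was at 1079.6 and 885 TPM. The pore-forming Bax was at 139 and 140.4 TPM and nearly even between libraries, its relative Bok at 44.97 and 44.1 TPM and Bak1 had 5 and 0 counts. The protective Mcl1 was at 57.3 and 62.8 TPM and Bcl2l1 at 4.65 and 6.31 TPM, while Bcl2 itself was at 0.05 and 0.04 TPM. The death receptor side was nearly off, with Casp8 at 0 counts in both, Fasl with 8 and 0 counts and Fas with 27 and 14.

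In the list for DNA methylation, imprinting and the X chromosome, 20 of 34 genes were present and 2 silent. The maintenance methyltransferase Dnmt1 was at 2.42 and 1.45 TPM and its guide Uhrf1 at 15.8 and 2.14 TPM. The de novo cofactor Dnmt3l was at 64.5 and 63.9 TPM, above the enzymes Dnmt3a at 4.54 and 3.34 TPM and Dnmt3b. Of the TET oxidases, Tet2 was at 16.01 and 10.6 TPM, Tet1 at 4.15 and 3.94 TPM and the oocyte form Tet3 at 1.01 and 0.45 TPM. Among imprinted genes Snrpn was at 203 and 227 TPM and Impact at 37.4 and 18.2 TPM, while H19 and Airn had 0 counts in both, and Igf2 had 6 and 15. Xist, which silences the X chromosome, was at 4.79 and 7.37 TPM, and its antisense partner Tsix at 21.9 and 49.4 TPM. They overlap on opposite strands and the strand setting is not given in the sources used here, so their reads cannot be told apart with certainty. Y-linked genes were present in both pools, with Eif2s3y at 95.6 and 50.99 TPM and Ddx3y at 20.2 and 11.7 TPM, while the testis-determining gene Sry had 0 counts in both.

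Other cell types that could travel with embryos were searched by their own lists. Of 24 cumulus and granulosa genes, 16 were silent and 1 was present, Serpine2 at 14.2 and 20.1 TPM. The defining Fshr, Cyp19a1 and Cyp11a1 had 0 counts in both libraries. Of 22 sperm genes, 12 were silent and the 2 present were Odf2 at 8.11 and 5.21 TPM, a centrosome gene in other cells, and Spesp1 at 2.12 and 1.78 TPM. The protamine Prm1 had 8 and 0 counts and Tnp1 0 in both. Of 20 blood and immune genes 11 were silent and Cd52 and Hba-a2 were present, the latter at 36.3 and 111 TPM while the beta globins Hbb-bs and Hbb-bt had 0 counts in both. Hba-a1, a near-identical copy, was at 0 and 2.33 TPM, so the split between these copies is uncertain. In the list for neuron, muscle, liver and fibroblast, 14 of 25 were silent and 1 was present, the creatine kinase Ckm at 6.62 and 5.68 TPM, with Alb and Acta2 at 0 counts in both.

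The lists also differed in how far the replicates lay apart, always beside the 14.3% of all present genes. Complexes I to V (2 of 82) and cholesterol synthesis (1 of 21) were well below that share. Trophectoderm (16 of 26), cavitation pumps and water channels (5 of 9) and the 2-cell stage (8 of 16) were well above it. So were primitive endoderm (4 of 9), the oocyte list (9 of 24) and the RNA interference and piRNA list (5 of 14). The lists for DNA methylation, imprinting and the X (7 of 20) and for signalling (8 of 23) were too. Several of these rest on few genes. Many other lists lay above 14.3% by less, such as the Hippo pathway (5 of 20), pluripotency (6 of 27), antioxidant genes (7 of 34) and junctions (7 of 35). The spread was thus not particular to the lists named first. Of all 1268 present genes over 2-fold apart, 823 were higher in replicate 2 and 445 in replicate 1. Small counts toward replicate 2 thus lie nearer to the split of all genes than like counts toward replicate 1. Trophectoderm leaned toward replicate 1 (13 of 16), and the 2-cell stage (7 of 8), the oocyte list (8 of 9) and the RNA interference list (5 of 5) toward replicate 2. Lists of other kinds leaned as strongly. Toward replicate 1 these were junctions (6 of 7), antioxidant genes (6 of 7), fatty acids (5 of 5) and glycolysis (4 of 4). The TCA cycle (4 of 4) and the heat shock list (5 of 6) went the same way. Toward replicate 2 they were pluripotency (6 of 6), one-carbon and nucleotide synthesis (6 of 6) and the cell cycle (6 of 7). As a difference between replicates, the median log2 of replicate 2 over replicate 1 was -0.95 for present trophectoderm genes, 0.56 for the 2-cell stage, 0.74 for the oocyte list and 0.11 over all present genes. The part that a shift of these gene groups between the pools plays in other gaps was not tested.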

How the data were processed

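The 2 siControl libraries were used, each of 10 embryos, with groups taken from the sample titles; the siPwp1 libraries were not used here, and no groups were compared or tested. Some list members are counted but not reported here by name. Expected counts from RSEM, per the file headers, were deposited without normalization. The deposited TPM were scaled by the authors within each library over effective gene length. The FPKM in the deposited files, made by the authors, are proportional to TPM and were not used. The submitters' processing notes name STAR 2.7.10, RSEM 1.3.3 and mm10. How reads were trimmed, which annotation release was used and whether strand was kept is not given in the sources used here. RSEM shares out reads that fit several gene copies, which makes the level of any 1 copy in a repeated family uncertain, and overlapping genes on opposite strands may take reads from each other.

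Present means a TPM of 1 or more in both libraries and silent an expected count under 3 in both. Genes were ranked by mean TPM, with no pseudocount and no filter on low values. Classes were set by symbol patterns and 29 lists by known roles. The members and lists were chosen with earlier results of these data known. Named genes are the 30 most abundant, the 5 highest of each list, silent members, members present in 1 library or over 4-fold apart, and 10 genes outside all lists and classes; further members were named for their role after their values were seen. RefSeq (GRCm38.p6) matched 24362 of the 24411 genes and gave kinds, positions and promoters. The rules for calls were checked on simulated data. Alternatives were other thresholds, CPM in place of TPM, TMM scaling of edgeR 4.0.16 in R 4.3.3, other rankings, and each library alone. Tables were made with Python 3.11.15 and pandas 2.3.3.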

Additional observations from a re-analysis of the deposited data

How the results depend on the processing

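The 8871 present genes became 5747 at a TPM of 5 or more in both libraries, fewer by construction, and 10092 at 0.5 or more. With a single library required, 9487 to 9491 genes were present and 9719 to 9803 silent. The 100 most abundant genes held a mean of 38.3% of TPM. That share was 36.5% to 40.5% in single libraries and 26.4% when genes were ranked by CPM and the share taken over expected counts, which leave gene length out. Cytosolic ribosomal protein genes numbered 47 of those 100, 47 in each library alone and 23 by CPM. With genes of effective length 200 or more, an alternative chosen after seeing the data, the number was 45. Of present genes, 1268 were over 2-fold apart, 1208 after rescaling by the median ratio, 1199 with TMM and 149 at a fold of 4, which is stricter by construction. That count cannot be had from a single library. No paired analysis was possible because no groups were compared.

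The counts of list members present moved by over 1.5 times in 14 of 29 lists at a TPM of 5, all lower, in 8 at an expected count of 10 or more, and in 2 when replicate 1 or replicate 2 was left out. Counts of silent members, mostly small, moved by that much in 9 lists when a replicate was left out. At a TPM of 5 the 2-cell list went from 16 present to 5 and the oocyte list from 24 to 9, and at 0.5 the primitive endoderm list from 9 to 15. With 10 embryos in each of 2 libraries, depth limits calls near the floor of 3 counts, and the number of libraries limits the rest.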

Other observations

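Outside the comparisons above, the widest gaps between replicates among abundant genes were not confined to the lists. Among present genes over 4-fold apart with a mean over 50 TPM, chosen after their values were seen, the stress-responsive chromatin protein gene Nupr1 was at 16.3 and 159.9 TPM and Esp24, of a family of exocrine peptides, at 6.99 and 93.9 TPM, both higher in replicate 2. The acyl-CoA binding gene Dbi at 165 and 39.6 TPM and the annexin partner S100a10 at 131 and 31 TPM were higher in replicate 1. The S100a10 partner Anxa2, a member of the trophectoderm list, went the same way at 105 and 39.2 TPM but was only 2.69-fold apart. The meiotic kinase gene Aurkc was at 34.6 and 169 TPM, where its relatives Aurka and Aurkb were at 212 and 346 and 23 and 34.3 TPM.

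By chromosome, the median of present genes was 12.9 TPM for 334 genes on the X and 11.6 TPM for 8531 on the autosomes, and 4 of 49 genes on the Y were present. Long noncoding RNA genes held 0.411% and 0.378% of TPM, and among them Malat1, a nuclear RNA of most cell types, was at 114 and 112 TPM and the snoRNA host Snhg1 at 148 and 140.3 TPM. Transcribed pseudogenes held 1.69% and 1.54%, with 4 in the top 100. Pwp1, which the other libraries of the series target, was at 91.4 and 167 TPM after siControl.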
